A study of Drosophila melanogaster with 13 samples.

Results

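This account concerns pita, the gene that encodes the zinc-finger protein Pita, and Orc4, which encodes a subunit of the origin recognition complex. Both genes lie on chromosome arm 2R of the Drosophila melanogaster genome (build dm6), with pita at chr2R:23548967-23554712 and Orc4 at chr2R:24795740-24797414. They are 2 of 17684 genes on the main chromosome arms. Their peaks were every deposited peak that met the interval from 2 kb before to 2 kb after either gene, which gave 13 of 6204 peaks, 7 at pita and 6 at Orc4.

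Chromatin immunoprecipitation with sequencing (ChIP-seq), which recovers the DNA bound by a protein, had been done on whole adult flies of 3 lines, aged 2 to 3 days, each precipitated both with anti-FLAG and with anti-Pita antibodies. All 3 lines carry the allele pita1attP, and differ in the Pita protein they make. Pitawt makes the wild-type protein, PitaΔZ a protein without the ZAD (zinc finger-associated domain), and PitaZ276 a protein with the ZAD-like domain of human ZFP276 in its place. The genotype label of PitaΔZ also names y1w1118, which the labels of the other lines do not. The labels do not say where in the genome the sequence for the expressed protein lies or how much of pita the allele retains. Sequence shared by a transgene and the pita gene would map to the same coordinates, and its part in the signal at pita was not tested. Each line and antibody had 2 libraries, and a single control library, titled preimmune and labelled IgG, was made from Pitawt.

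Pita is a DNA-binding architectural protein found at insulators and gene promoters. Its ZAD lets such proteins pair with one another. Pita is also known as Spotted dick, and was described in flies as being needed for Orc4 expression and DNA replication. The origin recognition complex marks the sites where replication starts and loads the replicative helicase. The comparison made here asks how the peaks at these genes stand in each of the 6 lists, 1 for each line and antibody, when the ZAD is removed or exchanged.

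Each list joins a pair of peak lists and holds 1792 peaks for Pitawt FLAG, 1195 for Pitawt Pita, 685 for PitaΔZ FLAG, 797 for PitaΔZ Pita, 1243 for PitaZ276 FLAG and 492 for PitaZ276 Pita. The position, summit, fold enrichment and p of a peak are those of the first joined list. The position, summit and p in the second are also given. The depth of the libraries is unknown. Without values per library there is no spread between replicates and no test between lines, so the comparisons below are descriptions. Folds are the authors' values and are read only against other peaks of the same list. The joined lists matched least in PitaZ276 Pita, where the −log10 p of the second exceeded that of the first by a median factor of 25.5.

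Orc4 had a single peak in each of the 6 lists. Its summit lay at the higher-coordinate end of the gene every time. A peak within 2 kb was present in all 6 lists for 873 of 17684 genes (4.94%). By list, the share of genes with such a peak was 20.5% for Pitawt FLAG, 8.87% for PitaΔZ FLAG and 15.0% for PitaZ276 FLAG. With anti-Pita it was 13.7% for Pitawt, 9.1% for PitaΔZ and 5.97% for PitaZ276. Presence in all 6 lists was thus uncommon among genes. Of all 1792 Pitawt FLAG peaks, 378 were met in all 6 lists (21.1%). It was more frequent among those as strong as the Orc4 peak. Of 145 Pitawt FLAG peaks with a fold within a factor of 1.2 of it, 88 met a peak in all 6 lists (60.7%, exact 95% interval 52.2 to 68.7).

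The Pitawt FLAG peak at Orc4 ran from 24795914 to 24798608 and had its summit at 24797452, 38 bp beyond the end of the gene. The summit therefore lay between Orc4 and CG12849, the next gene, which starts 473 bp farther on. The peak in PitaΔZ FLAG had its summit 24 bp beyond the gene end, and that in PitaZ276 FLAG 27 bp beyond it. With the Pita antibody the summit was 26 bp beyond the end in Pitawt and 31 bp beyond it in PitaΔZ. In PitaZ276 Pita it fell 10 bp inside the gene. The 6 summits spanned 48 bp in all. In the second joined lists the 6 summits were 36 to 64 bp beyond the gene end and spanned 28 bp, and there the PitaZ276 Pita summit was the farthest out, at 64 bp. The summit inside Orc4 was thus found in the first joined list of PitaZ276 Pita alone.

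**Figure D1:**
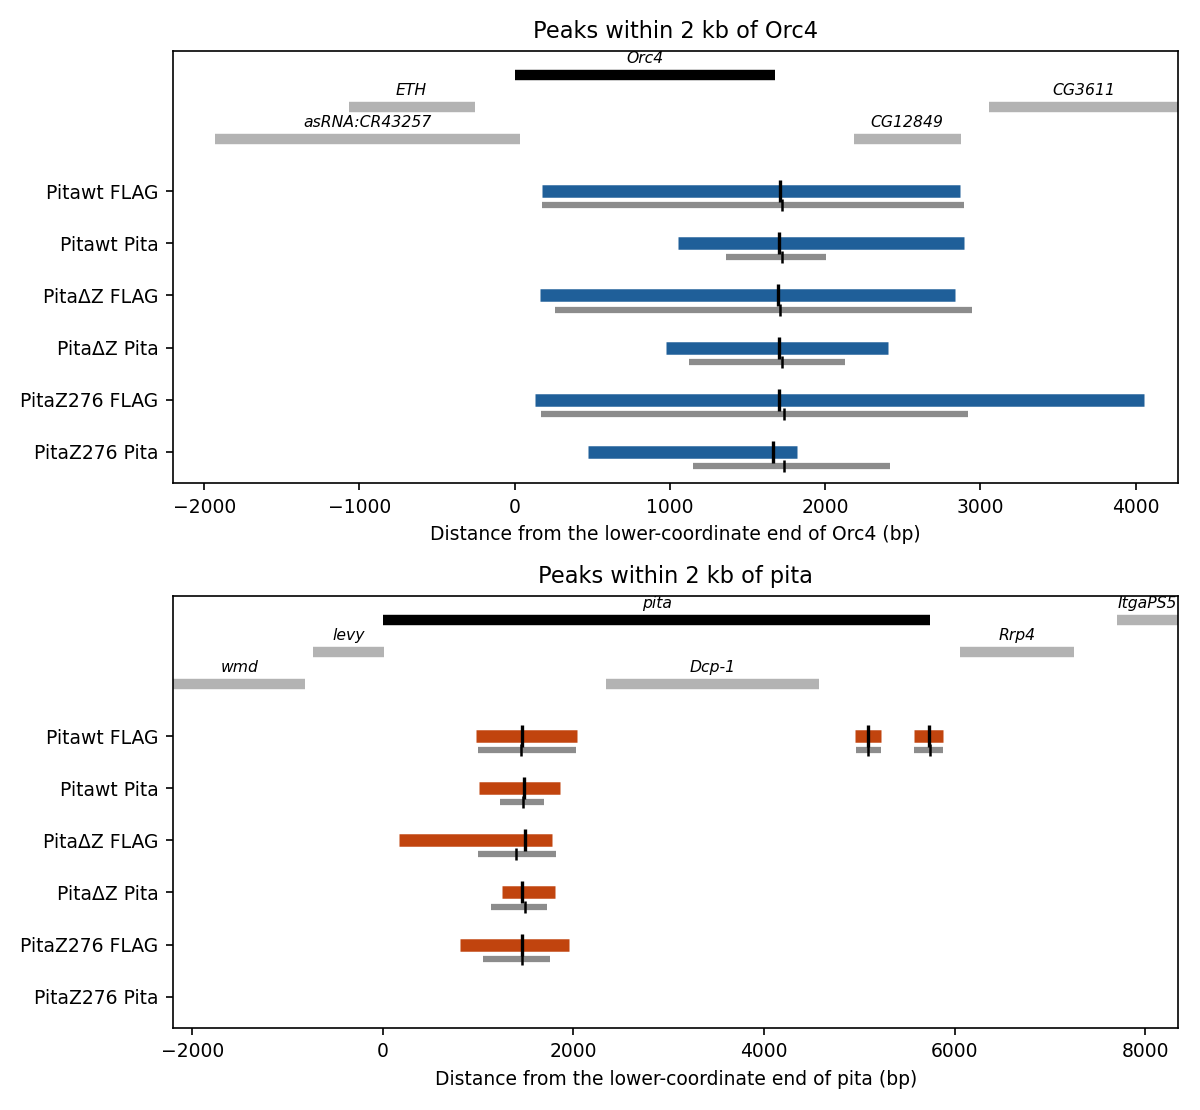
Peaks within 2 kb of Orc4 and pita in the 6 lists, as distance in bp from the lower-coordinate end of each gene. Coloured bars are the peaks of the first joined list, grey bars those of the second, and ticks their summits; black and light grey bars above mark Orc4 or pita and the neighbouring genes. All Orc4 peaks cover the higher-coordinate end of the gene, and the PitaZ276 Pita row at pita is empty.

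Against all peaks shared with Pitawt FLAG, the Orc4 summits were placed about as closely as most. The distance to the Pitawt FLAG summit was 12 bp in Pitawt Pita, where the median over 1143 shared peaks was 13 bp. It was 14 bp in PitaΔZ FLAG (median 12 bp over 669 peaks) and 7 bp in PitaΔZ Pita (median 16 bp over 736). In PitaZ276 FLAG it was 11 bp, against a median of 23 bp over 1112 peaks. The 48 bp of PitaZ276 Pita compare with a median of 31 bp over 475 peaks, of which 36.8% lay at least as far apart.

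By fold among all peaks, Orc4 stood in the upper part of 5 lists and near the middle of PitaZ276 Pita. Its fold was 31.7 in Pitawt FLAG, where it ranked 274th of 1792, so that 15.3% of peaks were at or above it (95% interval 13.7 to 17.04). With the Pita antibody in Pitawt it had a fold of 28.5 and ranked 241st of 1195 (20.2%, 17.9 to 22.6). These intervals, exact Clopper-Pearson ones, cover counting error only, as if the peaks of a list were independent draws. They cover no spread between libraries. In PitaΔZ its fold was 38.8 with FLAG, with rank 261 of 685 (38.1%, 34.5 to 41.9), and 27.2 with the Pita antibody, with rank 226 of 797 (28.4%, 25.2 to 31.6). PitaZ276 FLAG gave it a fold of 26.4 and rank 185 of 1243 (14.9%, 12.9 to 16.99). PitaZ276 Pita gave 5.68 and rank 241 of 492 (49.0%, 44.5 to 53.5). Among the PitaZ276 Pita peaks with a −log10 IDR of at least 2, the share at or above it was 90.05%, near the bottom. Because the lists differ in length and in IDR cut, these ranks do not show a change between lines.

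A fixed set of sites gives ranks with the same denominator. Among the 378 sites called in all 6 lists, Orc4 stood near the middle by fold. By fold it ranked 210th in Pitawt FLAG, 175th in Pitawt Pita, 193rd in PitaΔZ FLAG and 176th in PitaΔZ Pita. It ranked 161st in PitaZ276 FLAG and 204th in PitaZ276 Pita. The largest shift from its place in Pitawt FLAG, in PitaZ276 FLAG, was 49 places. Of the 378 sites, 37.0% shifted at least as far between these lists, where the median shift was 35.5 places. The shift was 17 places in PitaΔZ FLAG, where 85.7% of sites shifted at least as far and the median was 66 places. For the anti-Pita lists the shift, still from Pitawt FLAG, was 35 places for Pitawt, 34 for PitaΔZ and 6 for PitaZ276. These 3 shifts cross antibodies and are not shifts between lines. Within anti-Pita, Orc4 held nearly the same place in Pitawt and PitaΔZ (175th and 176th) and a lower one in PitaZ276 (204th). In each of the 5 comparisons with Pitawt FLAG, at least 33.9% of sites shifted as far as Orc4. By p of the second joined list, Orc4 ranked 172nd in Pitawt FLAG, 121st in PitaZ276 FLAG and 128th in PitaZ276 Pita. The shifts were then 51 places, with 34.1% of sites shifting as far, and 44 places in place of 6. In the other 3 lists it ranked between 160th and 188th.

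**Figure D2:**
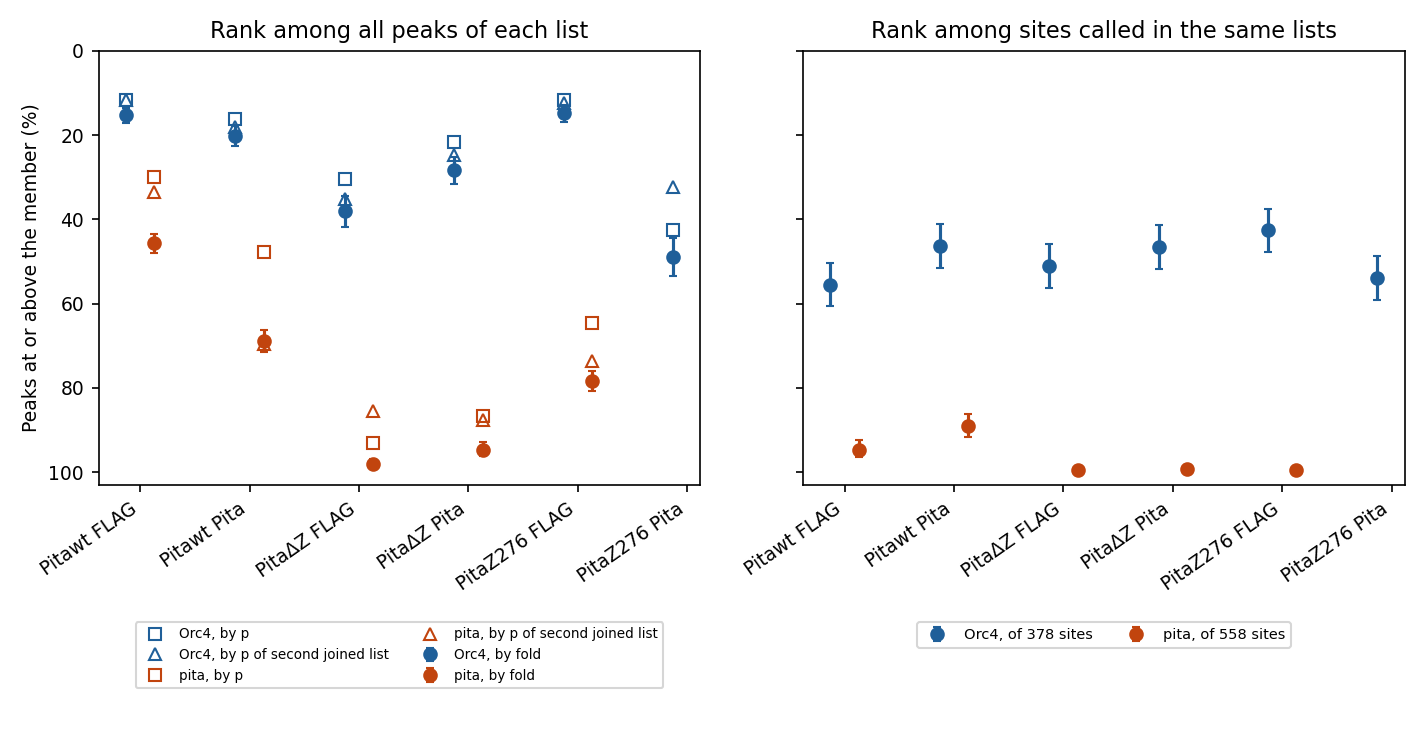
Share of peaks at or above the Orc4 and pita peaks in each list, in percent with the strongest at the top. Left, among all peaks of the list by fold (filled, with exact 95% intervals), by p and by p of the second joined list; right, by fold among the 378 sites called in all 6 lists (Orc4) or the 558 called in the 5 lists that hold a pita peak. Orc4 stands above pita in each of the 5 lists that call both.

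The p-values of both joined lists were close at Orc4 in Pitawt FLAG, with a −log10 p of 499.5 in the first and 513 in the second. They were 423 and 364 in PitaΔZ FLAG and 430 and 367 in PitaΔZ Pita. In Pitawt Pita the second was lower, at 172 against 330, and in PitaZ276 FLAG it was higher, at 721 against 363. PitaZ276 Pita had 20.4 in the first and 859 in the second, a factor of 42.1. At least that factor was found for 28.9% of the peaks in that list, so the mismatch was not confined to Orc4. By the second p, Orc4 ranked 159th of 492 there (32.3%).

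The Orc4 peak was broad. It was 2695 bp wide in Pitawt FLAG, 2.66 times the median of that list, and 2675 bp in PitaΔZ FLAG. In PitaZ276 FLAG it was 3926 bp wide and reached 2381 bp beyond the gene end, into CG3611. In the first joined lists the peaks of 5 lists, all but PitaZ276 Pita, overlapped CG12849, and only that of PitaZ276 FLAG met CG3611. In the second joined lists the PitaZ276 Pita peak reached 24798160 and overlapped CG12849, which starts at 24797925. Those of Pitawt Pita and PitaΔZ Pita ended before it there, at 24797745 and 24797868. With the Pita antibody the Orc4 peak was narrower, at 1844 bp in Pitawt, 1436 bp in PitaΔZ and 1346 bp in PitaZ276. The lists made with that antibody also had narrower peaks, with median widths of 790, 760 and 568.5 bp against 1014.5, 1412 and 1258 bp for FLAG. Few peaks of any list were as wide, from 3.14% in PitaZ276 FLAG to 11.2% in PitaΔZ Pita. Among peaks of like fold, within a factor of 1.2, the share as wide with anti-FLAG was 13.8% for Pitawt, 11.4% for PitaΔZ and 10.2% for PitaZ276. With anti-Pita it was 6.12% for Pitawt, 16.7% for PitaΔZ and 1.64% for PitaZ276. In the second joined lists the width was 2724 bp in Pitawt FLAG, 2690 bp in PitaΔZ FLAG and 2747 bp in PitaZ276 FLAG. The extra length in PitaZ276 FLAG was thus in its first joined list alone. With anti-Pita the second lists gave 643 bp for Pitawt, where the median was 512 bp, 1005 bp for PitaΔZ (median 726 bp) and 1271 bp for PitaZ276 (median 1029.5 bp). With anti-Pita the width was thus closer to the list median in the second joined list than in the first, in all 3 lines. Of all peak calls at Orc4, both joined lists included, a segment of 456 bp from 24797103 to 24797558 was common to every one, and it spans the gene end.

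**Figure D3:**
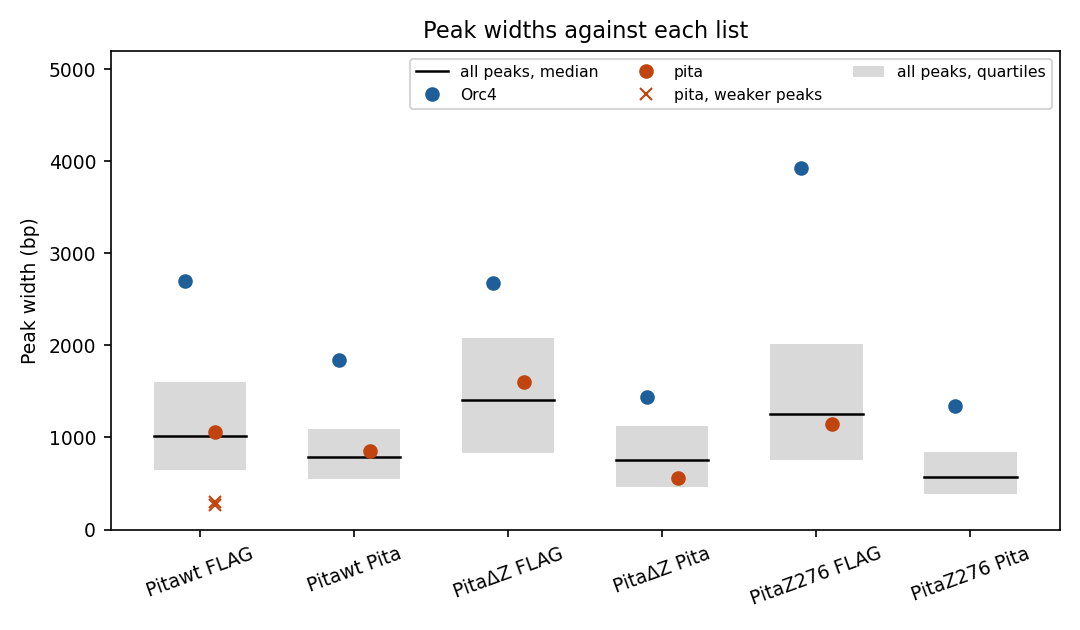
Peak width in bp for Orc4 and pita in each list. Grey boxes run from the lower to the upper quartile of all widths of the list, with a line at the median, and crosses mark the weaker pita peaks. Orc4 lies above the upper quartile in all 6 lists.

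A peak was called inside pita in 5 lists, all but PitaZ276 Pita. With each list cut to the 492 peaks of highest fold, the length of PitaZ276 Pita, it was in 0 of 6. It was far weaker than the Orc4 peak in each. A peak within 2 kb in these 5 lists and not in PitaZ276 Pita was found for 375 of 17684 genes (2.12%), and 180 of the 1792 Pitawt FLAG peaks had this pattern (10.0%). The Pitawt FLAG peak ran from 23549945 to 23551003 with its summit at 23550428. That summit is 1461 bp inside the gene from its lower-coordinate end and 885 bp from Dcp-1, a caspase gene that lies wholly within the span of pita. No peak of any list met Dcp-1 or levy, the gene that overlaps the lower-coordinate end of pita and encodes a cytochrome c oxidase subunit. The reference table holds no exons or strand, so the summit was not assigned to an exon or to an end of the transcript.

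The pita summits marked the same place in the 5 lists. With anti-FLAG the distance from the lower-coordinate end was 1461 bp for Pitawt, 1491 bp for PitaΔZ and 1456 bp for PitaZ276. With anti-Pita it was 1483 bp for Pitawt and 1463 bp for PitaΔZ. These 5 summits spanned 35 bp. The second joined lists spanned 102 bp, from 1392 to 1494 bp. The lowest of these was in PitaΔZ FLAG, where the joined summits were 99 bp apart, and 2.48% of the peaks of that list had joined summits at least as far apart. Without that list, the other second summits lay between 1454 and 1494 bp. All calls shared a segment of 445 bp, from 23550217 to 23550661.

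**Figure D4:**
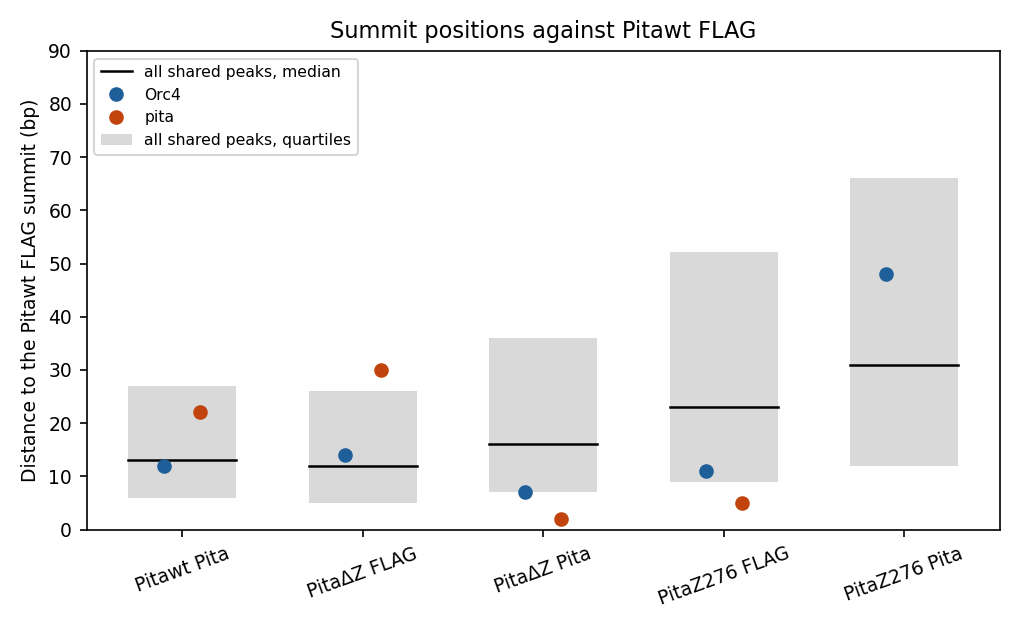
Distance in bp from the Pitawt FLAG summit to the summit in each other list, for Orc4 and pita. Grey boxes run from the lower to the upper quartile over all peaks shared with Pitawt FLAG, with a line at the median. Of the 9 points, only pita in PitaΔZ FLAG, at 30 bp, lies above the box.

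By fold among all peaks, the pita peak was near the middle of the Pitawt FLAG list and near the bottom of both PitaΔZ lists. In Pitawt FLAG it had a fold of 11.8 and ranked 819th of 1792, so that 45.7% of peaks were at or above it (43.4 to 48.0). Its fold was 8.79 in Pitawt Pita, rank 824 of 1195 (69.0%, 66.2 to 71.6). PitaΔZ FLAG gave a fold of 5.48 and rank 672 of 685 (98.1%, 96.8 to 98.99), so that 13 peaks of that list were weaker. PitaΔZ Pita gave 3.03 and rank 755 of 797 (94.7%, 92.9 to 96.2), and PitaZ276 FLAG 4.64 and rank 974 of 1243 (78.4%, 76.0 to 80.6). By −log10 p the share in Pitawt FLAG was 30.0%. As for Orc4, the lists differ in length and in IDR cut, so these ranks do not show a change between lines.

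Set against wild-type peaks of like strength, the pita site was among the minority still called in PitaΔZ. Of 258 Pitawt FLAG peaks with a fold between 9.81 and 14.1, 82 met a PitaΔZ FLAG peak (31.8%, 26.1 to 37.8) and 108 a PitaΔZ Pita peak (41.9%, 35.8 to 48.1). More of them met a PitaZ276 FLAG peak, at 187 (72.5%, 66.6 to 77.8). That list had a laxer cut, with a smallest −log10 IDR of 1.31 against 2.01 and 2.02 in the PitaΔZ lists. These shares are thus not at a like threshold. Only 34 of the 258 peaks met a PitaZ276 Pita peak (13.2%, 9.30 to 17.9). Most peaks of this strength were thus, like pita, not called in that shortest list. There were 558 Pitawt FLAG peaks met in the 5 lists that hold the pita peak. Among these, pita stood at rank 528 in Pitawt FLAG, 497 in Pitawt Pita, 555 in PitaΔZ FLAG, 554 in PitaΔZ Pita and 555 in PitaZ276 FLAG. Pita was thus near the bottom of the sites that share its calls in every line. With anti-FLAG it stood 27 places lower in both altered lines than in Pitawt, and 83.7% of sites in PitaΔZ and 65.2% in PitaZ276 shifted at least as far. A site so low in the wild type can fall by few places in this set. By p of the second joined list, pita ranked 445th in Pitawt FLAG, 499th in PitaΔZ FLAG and 558th, the last place, in PitaZ276 FLAG. Those shifts were 54 places, with 70.8% of sites shifting as far, and 113 places, with 21.1% shifting as far. With anti-Pita it then ranked 505th for Pitawt and 550th for PitaΔZ.

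Orc4 was stronger than pita in 5 of the 5 lists that call both. The ratio of their folds within a list was 2.69 in Pitawt FLAG and 3.25 in Pitawt Pita. It was 7.08 in PitaΔZ FLAG, 9.00 in PitaΔZ Pita and 5.70 in PitaZ276 FLAG. The ratio was thus lower in both Pitawt lists than in the other 3. Taken on the −log10 p, it was 2.72 and 3.79 in Pitawt FLAG and Pita, and 13.1, 27.3 and 10.6 in the other 3. The second joined lists kept Orc4 the stronger but not that split, as the ratio was 8.23 in Pitawt Pita and 7.91 in PitaΔZ FLAG. With 1 list for each line and antibody the difference between lines has no replicate check. The median fold of the 5 lists also ranged from 9.90 in PitaZ276 FLAG to 29.5 in PitaΔZ FLAG. Such ratios were not taken for other pairs of sites.

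The pita peak lay within the usual width of each list. It was 1059 bp wide in Pitawt FLAG, 852 bp in Pitawt Pita, 1606 bp in PitaΔZ FLAG, 558 bp in PitaΔZ Pita and 1141 bp in PitaZ276 FLAG. Each lay between the quartiles of its list. Among peaks of like fold it was wider than most in 4 of the 5 lists. The share as wide was 52.3% for Pitawt FLAG and 30.6% for Pitawt Pita, 14.8% and 18.1% in PitaΔZ, and 15.4% for PitaZ276 FLAG. In the second joined list of PitaΔZ FLAG it was 817 bp wide. The wide call there began 171 bp from the lower-coordinate end of the gene in the first joined list only.

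Pitawt FLAG held a pair of further peaks in pita, near its other end. The first ran from 23553922 to 23554190, between Dcp-1 and the end of pita, with a fold of 7.95 and rank 1110 of 1792. The second ran from 23554545 to 23554840, with a fold of 5.29, rank 1501 and a summit 14 bp inside the gene end, on the side of Rrp4, which encodes an exosome component. Neither was called in any of the other 5 lists. Among 392 Pitawt FLAG peaks with a fold from 5.29 to 7.95, 160 met no other list (40.8%), against 21.9% of all Pitawt FLAG peaks, so absence elsewhere was frequent at that strength. Both joined lists held them in nearly the same place, with summits 6 and 14 bp apart. The −log10 p was 68.6 and 41.5 for the first, and 32.2 and 33.7 for the second.

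Those weaker pita peaks were narrow. The first was 269 bp wide, and 14 of 1792 peaks in the list were as narrow (0.781%). The second was 296 bp wide, and 35 were as narrow (1.95%). Of 319 peaks with a fold within a factor of 1.2 of the first, the median width was 806 bp. That first peak was itself the only one as narrow (0.313%). Of 340 peaks of like fold to the second, 6.18% were as narrow. Having 3 peaks in a gene and its 2 kb flanks was also infrequent in Pitawt FLAG. Among 3627 genes that had any peak, 85 had at least 3 (2.34%). Of these genes, 2531 were no longer than pita, and 24 of those had at least 3 (0.948%), though shorter genes leave less room for 3.

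Along the chromosome, Orc4 had weak neighbours and pita strong ones. The nearest Pitawt FLAG peaks outside the Orc4 window were 52.1 kb before it, inside Usp15-31, and 50.8 kb after it, near CG3650. These were weak, with folds of 4.88 and 4.67. The former was called in no other list and the latter also in Pitawt Pita. Around pita the nearest were 476 kb before it, 44 bp from an end of Fib, the fibrillarin gene, and 102 kb after it, inside the gene of the transcription factor retn. Both were stronger than pita, with Pitawt FLAG folds of 24.9 and 48.9, and were called in all 6 lists. The median gap between neighbouring Pitawt FLAG summits was 34.5 kb, and 0.675% of gaps were as long as that before pita. The 102 kb after pita was taken from its strongest summit and passes over the weaker pita peaks described above. It is thus longer than the gap between neighbouring summits there, and 21.6% of gaps were as long as this 102 kb. Gaps as long as those beside Orc4 made up 38.6% and 38.8%.

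Of the other subunits of the origin recognition complex, Orc5 alone had a peak within 2 kb in any list. That peak was in Pitawt FLAG, with a fold of 4.78 and rank 1601, and its summit was 451 bp from an end of Orc5. Orc1, Orc2, Orc3 and Orc6 had none. Thus 2 of 6 subunit genes, Orc4 among them, had a Pitawt FLAG peak, where the share of all genes was 20.5%. In each other list 1 of 6 had a peak, which was Orc4 itself, a gene chosen for this account. The shares of all genes in those lists ran from 5.97% to 15.0%. Among 16 genes for loading and activating the replicative helicase, 3 had a peak in any list, where the share of all genes was 22.1%. The gene dup, which encodes the helicase loading factor Cdt1, had a peak in all 6 lists. Its fold was 17.7 in Pitawt FLAG and 8.08 in Pitawt Pita, 37.7 and 21.6 in PitaΔZ, and 15.4 and 3.40 in PitaZ276. Its Pitawt FLAG summit lay outside dup, 60 bp from an end. The helicase subunit gene dpa had a peak in Pitawt FLAG (fold 5.30) and PitaZ276 FLAG (4.47), and Cdc45 in Pitawt FLAG (6.43), with a summit 2629 bp from the gene.

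Among 14 genes of architectural proteins, 4 had a peak in any list, which were pita, BEAF-32, Chro and CTCF. BEAF-32, a boundary element factor, had folds of 9.97 in Pitawt FLAG and 10.0 in PitaZ276 FLAG. Chro, which encodes the chromodomain protein Chromator, had 7.07 and 5.36 in the Pitawt lists, and CTCF had 4.66 in Pitawt FLAG. The architectural genes su(Hw), Cp190 and mod(mdg4) had none. Of 15 genes for ZAD zinc-finger proteins, 5 had a peak in any list. Besides pita, grau had folds of 4.80 in Pitawt FLAG, 4.74 and 3.72 in the PitaΔZ lists and 5.11 in PitaZ276 FLAG, and kipf had 8.55 and 9.71 in the Pitawt lists. Zif (4.54) and pad (3.63) had a Pitawt FLAG peak only. No gene of either list was called in PitaZ276 Pita, where 5.97% of all genes had a peak within 2 kb. With 2, 3, 4 and 5 genes called in any list, these gene lists are too short to be read against the shares of all genes, 22.1% in any list and 5.97% in PitaZ276 Pita.

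The sites whose ranks over the 6 lists were most like those of Orc4 were at Larp4B, CG5989, Taf1, tko and trbd. Their percentile ranks differed from those of Orc4 by a mean of 2.66 to 4.195 percentage points, where the median over 1791 other Pitawt FLAG sites was 54.2. All 5 had summits within 91 bp of a gene end. All 5 were called in every list, which the choice itself favoured. A list without a peak counted as 100% in this measure, while Orc4 stood at no more than 49.0% in any list. For pita the most alike were at DCTN1-p150, CG18747, CG8839, tRNA:Leu-TAG-1-2 and CG7201, at 1.97 to 3.20 points, where the median over the other sites was 16.6, a smaller one than for Orc4. All 5 had peaks in Pitawt FLAG, Pitawt Pita and PitaZ276 FLAG and none in PitaΔZ. For pita, the 100% given to a list without a peak is close to the place of its peak in PitaΔZ.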

How the data were processed

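The authors deposited 6 peak lists. Per the submitters' processing notes, cutadapt, Bowtie2, Picard, bedtools, MACS2 and deepTools were used with build dm6; their versions and order are not stated there. The lists have no header. Their 20 columns were read as an irreproducible discovery rate (IDR) join of a pair of peak lists, each against the preimmune library by name. Deposited values were the fold enrichment (a ratio), the −log10 p-value and −log10 q-value, and a score from the −log10 IDR. The score followed from the IDR column to within 1 unit for every peak. The smallest −log10 IDR was 1.30 to 2.02 by list. No source used here ties a library to a joined list.

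Genes came from the RefSeq table of Release 6, without strand or exons. Peaks met a window or each other at 1 bp or more, and ranks were by fold. The overlap step was tested on simulated data. No genome was used here, and no sequence is shown. The members and gene lists were chosen with earlier results of these data known. Named genes were pita and Orc4, genes in their windows, the nearest outside peaks, up to 4 genes per list by Pitawt FLAG fold, and the 5 sites most alike in rank. Genes without a peak were named besides. The comparisons with peaks of like fold were added after seeing the data. Scripts ran under matplotlib 3.10.9, scipy 1.17.1, pandas 2.3.3, numpy 2.4.6 and Python 3.11.15.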

Additional observations from a re-analysis of the deposited data

How the results depend on the processing

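No paired analysis was possible because each line and antibody gave 1 joined list with no values per library, and no library could be left out for the same reason. The columns of the first joined list repeat the deposited position, summit and p, so that alternative gave no further values. Orc4 had a peak in 6 lists and pita in 5 with windows of 0.5 or 5 kb, with the summit required in the window, and at a −log10 IDR of 2 or a −log10 q of 10. A fold of at least 4 left pita in 4 lists. With each list cut to the 492 peaks of highest fold, Orc4 was still in 6 and pita in 0. Counts for the gene lists moved by no more than a factor of 1.5.

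Percentile ranks depended on the ranking. With FLAG before Pita, and lines in the order Pitawt, PitaΔZ, PitaZ276, ranking by −log10 p or q put 11.8%, 16.2%, 30.5%, 21.6%, 11.7% and 42.5% of peaks at or above Orc4. For pita it put 30.0%, 47.7%, 93.1%, 86.6% and 64.5%. By p of the second joined list, Orc4 had 11.7% in Pitawt FLAG, 24.8% in PitaΔZ Pita and, in PitaZ276, 12.3% with FLAG and 32.3% with Pita, and pita had 33.6% in Pitawt FLAG, 85.4% and 87.6% in PitaΔZ and 73.7% in PitaZ276 FLAG. At a −log10 IDR of 2 or more, Orc4 had 26.3% in Pitawt Pita and 90.05% in PitaZ276 Pita, and pita 86.6% in Pitawt Pita and 86.8% in PitaZ276 FLAG. Among sites called in the same lists, Orc4 had 55.6%, 46.3%, 51.1%, 46.6%, 42.6% and 54.0%, and pita 94.6%, 89.1%, 99.5%, 99.3% and 99.5%. These denominators are smaller and hold stronger peaks by construction.

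In the second joined lists the Orc4 summit was 49 bp beyond the gene end in Pitawt Pita, 36 and 51 bp in PitaΔZ FLAG and Pita, and 60 and 64 bp in PitaZ276 FLAG and Pita. The pita summit was 1392 and 1494 bp inside the gene in PitaΔZ FLAG and Pita. Widths there were 643 bp in Pitawt Pita, 1005 bp in PitaΔZ Pita and 2747 bp in PitaZ276 FLAG for Orc4, and 467 bp in Pitawt Pita, 817 bp in PitaΔZ FLAG and 698 bp in PitaZ276 FLAG for pita. The cause was not tested. Because depth is unknown, the missing pita peak in PitaZ276 Pita is a site not called, which does not show that Pita was absent there.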
